A study of Mus musculus with 4 samples.

Results

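Ligand genes that can hold immune cells in check were followed through cultured mouse pancreatic ductal cells. The set holds 9 genes, Cd200, Cd274, Pdcd1lg2, Cd276, Vtcn1, Cd47, Cd24a, Lgals9 and Pvr, out of 22869 gene symbols in the deposited tables. They were found by symbol, and for each gene the transcript with the highest mean count over the 4 libraries was taken. The 9 symbols match 10 deposited transcripts, because Lgals9 has 2, and all 9 genes had enough counts to be tested. The set was chosen by measured values in part: it was drawn up around Cd200, whose counts had already stood out as higher in this same comparison, and the other genes joined it by their function. The Cd200 values are therefore a description, and its p is not support for anything.

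The study cultured primary duct cells of adult C57BL/6 littermates and sequenced their RNA. Controls (n = 2) carried floxed Hhex alleles without Cre (HhexL/L), and the knockout group (n = 2) carried the same alleles with a tamoxifen-inducible Cre under the Sox9 promoter (Sox9CreER;HhexL/L). All 4 cultures received 500 nM 4-hydroxytamoxifen for 4 days, so the groups share the drug and the floxed alleles. No group carried Cre without floxed Hhex, so effects of the Cre and of the floxed gene cannot be told apart. Cre acts only in cells in which the Sox9 promoter is active.

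Surface ligands of this kind let a tissue cell dampen an immune cell that touches it. CD200 binds CD200R on myeloid cells. PD-L1 and PD-L2, encoded by Cd274 and Pdcd1lg2, engage PD-1 on T cells, and B7-H3 and B7-H4, encoded by Cd276 and Vtcn1, are relatives in the B7 family. CD47 and CD24 are "don't eat me" signals read by SIRP alpha and Siglec receptors on phagocytes. Galectin 9, the product of Lgals9, binds TIM-3, and CD155, the product of Pvr, binds TIGIT and CD96 as well as the activating receptor CD226. In human pancreatic tumours some of these ligands are studied as ways by which epithelium escapes immune attack.

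The libraries held 25257778 to 39582625 deposited counts. Hhex itself was not lower in the labelled knockout libraries, at 24.8 and 17.7 CPM in the control libraries against 23.6 and 38.9 CPM (edgeR adjusted p = 0.735), so these are called the labelled knockout libraries throughout. Which part of Hhex is removed is not given in the sources used here, and reads outside a deleted part would still count. CPM is the count per 1000000 counts of the TMM-scaled library. Ductal keratin genes were abundant in every library, with Krt18 between 6228 and 9233 CPM. All 12 of 12 ductal markers listed had enough counts to test, as did all 8 neural and Schwann and all 6 mesothelial markers. Among the 12 ductal markers edgeR called 0, with 3 at an unadjusted p under 0.05, against 7.51% of all transcripts. DESeq2 called 1 higher and 1 lower, against 2.17% of all called in either direction. For 3 ductal markers that were higher and 4 that were lower the groups did not overlap, against 19.1% and 17% of all transcripts tested. Sox9 and Muc1, named after their values were seen, were among them. Sox9 stood at 17.98 and 21.35 CPM in the control libraries against 52.2 and 44.25 CPM (log2 fold change 1.30 ± 0.17, SE; edgeR adjusted p = 0.0512). Muc1 stood at 22.7 and 19.2 CPM against 1.79 and 7.35 CPM (log2 fold change -2.24 ± 0.49, SE; edgeR adjusted p = 0.214). Acinar markers were nearly absent, with 7 summing to between 1.42 and 3.60 CPM and the amylase gene Amy2a5 at 0 counts in all libraries. The 9 fibroblast and stellate markers summed to between 5.004 and 13.8 CPM. Labelled knockout replicate 2 stood apart in the female-specific gene Xist, at 303.8 CPM against at most 1.75 CPM elsewhere. The Y-linked gene Ddx3y stood at 0.548 CPM in that library, against 108 and 158 CPM in the controls and 202 CPM in labelled knockout replicate 1. By these genes labelled knockout replicate 2 reads as female and the other libraries as male, so sex differs within the labelled knockout group. None of the 9 ligand genes lies on a sex chromosome, and the part of sex in their values was not tested.

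The stretches just upstream of the start sites of Cd200 and Vtcn1 are shown because these genes had the largest fold changes of the set, in opposite directions. Each run is 240 bases long and ends 10 bases before the start of the transcript, from RefSeq on build GRCm38.p6, 5′ to 3′ along the gene. The Cd200 window lies at chr16:45409064-45409303 on the minus strand and the Vtcn1 window at chr3:100825209-100825448 on the plus strand. Capitals mark matches to the searched motifs.
Cd200: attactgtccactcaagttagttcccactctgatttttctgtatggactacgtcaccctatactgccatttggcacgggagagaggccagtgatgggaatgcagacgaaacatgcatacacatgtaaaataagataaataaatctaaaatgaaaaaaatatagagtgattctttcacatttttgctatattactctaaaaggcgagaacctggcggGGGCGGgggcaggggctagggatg
Vtcn1: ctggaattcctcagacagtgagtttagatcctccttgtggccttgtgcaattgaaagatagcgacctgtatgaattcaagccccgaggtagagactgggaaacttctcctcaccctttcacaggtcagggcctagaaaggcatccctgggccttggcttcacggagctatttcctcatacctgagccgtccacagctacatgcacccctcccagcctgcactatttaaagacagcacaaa
The motifs searched on both strands were the interferon-stimulated response element (GAAA and GAAA with 2 bases between them), the gamma-activated site (TTC and GAA with 3 bases between), the NF-kB site (GGG and TTTCC with 2 bases between), the Sp1 GC box GGGCGG and the homeodomain palindrome TAATTA. The match in Cd200 is a GC box, which 31.3% of all 32851 RefSeq windows of this length also hold. The Vtcn1 window holds none of the 5 motifs. Windows were matched for 7 of the 9 genes. The GC box also occurs upstream of Cd274, Cd276 and Cd47, and Lgals9 has the interferon element on its reverse strand as TTTCTTTTTC, a motif in 2.87% of all windows. These matches describe letters and not factor binding.

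The 9 genes covered a wide span of levels. Levels of different genes are set side by side as the authors' RPKM, which divides reads by transcript length. Cd24a led in every library, at 145 and 164 RPKM in the controls and 188 and 223 RPKM in the labelled knockout libraries. It made up between 72.0% and 81.0% of the RPKM summed over the 9 genes. Pvr came next at 22.7 to 37.4 RPKM, followed by Cd47 at 9.56 to 11.1 RPKM. These 3 genes held the first 3 places in all 4 libraries. Cd274 and Pdcd1lg2 held the last 2 places in all 4, at no more than 0.577 RPKM and 0.204 RPKM. In between, Vtcn1, Lgals9, Cd276 and Cd200 changed places between libraries.

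**Figure D1:**
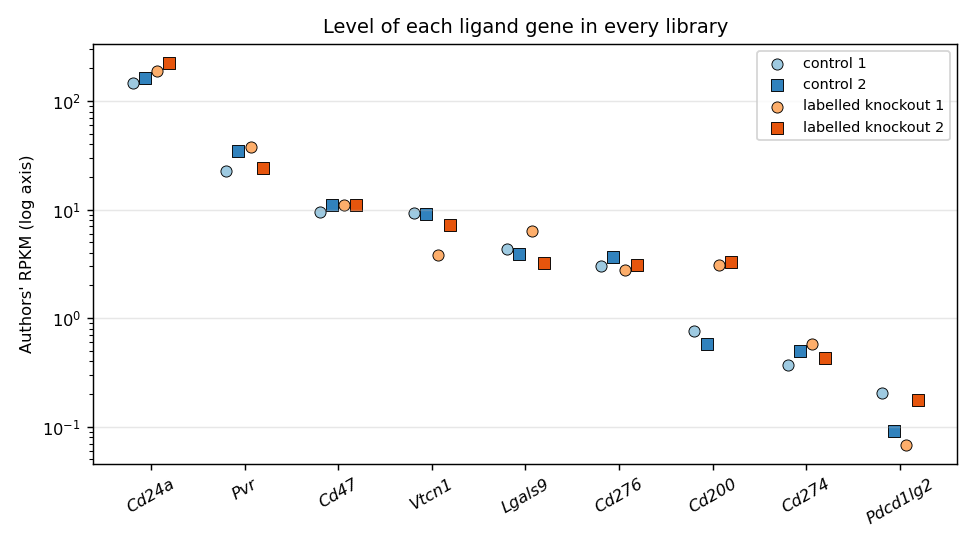
Authors' RPKM (log axis) of the 9 ligand genes, ordered by their mean, with 1 point for each of the 4 libraries. Cd24a is highest and Pdcd1lg2 lowest in every library, and Cd200 is the gene whose control and labelled knockout points stand farthest apart.

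Cd200 was higher in both labelled knockout libraries. It had 69 and 44 counts in the controls and 340 and 320 counts in the others. As CPM these were 2.51 and 1.78 in the controls against 9.10 and 10.3, and as RPKM 0.759 and 0.581 against 3.07 and 3.31. The groups were well apart: the lower labelled knockout library stood 3.62-fold above the higher control. Within a group the libraries lay within 1.41-fold of each other among controls and 1.13-fold among the labelled knockout libraries. The means were 2.15 ± 0.516 CPM (SD, n = 2) and 9.71 ± 0.858 CPM (SD, n = 2), a log2 fold change of 2.16 ± 0.27 (SE) with a 95% interval of 1.52 to 2.80.

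The 95% Poisson intervals of the Cd200 CPM, which cover counting error only, ended at 3.18 and 2.39 in the controls and began at 8.16 and 9.21 in the labelled knockout libraries. By RPKM, Cd200 ranked 7 of the 9 genes in both controls and 6 and 5 in the labelled knockout libraries. Its RPKM was 0.523% and 0.354% of that of Cd24a in the control libraries against 1.64% and 1.48%. It was thus still a minor transcript of the set in all 4 libraries.

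Cd200 was the 1 gene of the set that edgeR called (adjusted p = 0.0496), against 0.153% of the 20949 transcripts tested (0.105% higher and 0.0477% lower). Since that call chose the gene, nothing is read from this count. The call depended on the processing. Of 15 alternatives that kept all libraries, 7 called Cd200 and 8 did not, with adjusted p between 0.0739 and 0.922 in those 8, among them edgeR with 1 transcript per gene (0.103). It was also lost in edgeR without control replicate 1 (adjusted p = 0.822) and without control replicate 2 (adjusted p = 0.585).

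**Figure D2:**
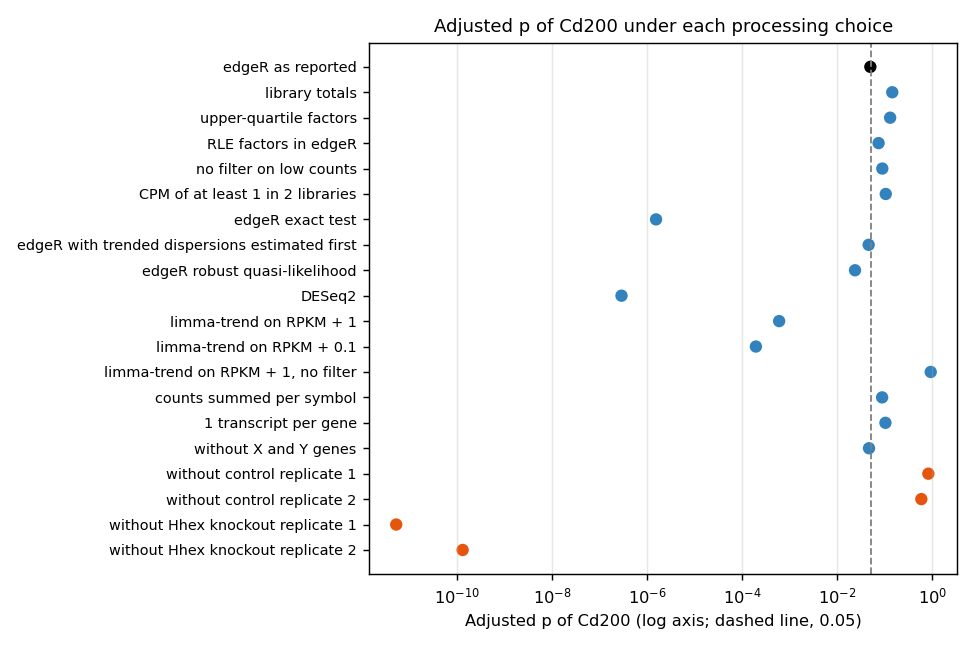
Adjusted p of Cd200 (log axis) under each processing choice, with the reported edgeR fit in black, alternatives on all libraries in blue and fits without 1 library in orange. The reported value of 0.0496 lies almost on the dashed line at 0.05, and the other points fall on both sides of it.

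Cell types that could carry Cd200 into such a culture were checked by marker lists. Endothelial cells express it, and their 8 markers summed to 11.3 and 4.46 CPM in the control libraries against 3.56 and 8.02 CPM in the labelled knockout libraries. The groups overlapped, and so did those of its most abundant markers Vwf, Esam and Tek, while Cldn5, named after its values were seen, had at most 3 counts in any library. The 7 endocrine markers summed to 2.18 and 0.932 CPM against 0.776 and 1.35 CPM, with Chga, the most abundant, at or below 0.874 CPM. The neural and Schwann list of 8 summed to 36.95 and 45.2 CPM against 47.2 and 79.5 CPM, most of it from the adhesion gene Ncam1. Within it Tubb3 stood at 1.27 and 0.689 CPM against 2.14 and 1.58 CPM, and S100b at 0.437 and 0.648 CPM against 1.98 and 1.61 CPM. The mesothelial list of 6, which includes Msln and the shared ductal keratin Krt19, summed to 2209 and 2765 CPM against 3691 and 5501 CPM. Msln provided most of that difference, at 1582 and 2011 CPM against 3136 and 4482 CPM (log2 fold change 1.08 ± 0.32, SE; edgeR adjusted p = 0.412). Upk1b, a uroplakin gene at a far lower level, also separated the groups, at 0.473 and 0.486 CPM against 2.14 and 3.61 CPM (log2 fold change 2.55 ± 0.54, SE; edgeR adjusted p = 0.200). Its fitted difference was larger than that of Cd200. Of the 6 mesothelial markers edgeR called 0, with 2 at an unadjusted p under 0.05, against 7.51% of all transcripts. DESeq2 called 2 higher, against 2.17% of all called in either direction. The other members Wt1, Upk3b and Lrrn4, named after their values were seen, stayed at or below 1.87 CPM in all libraries. Wt1 stood at 1.06 and 0.770 CPM in the control libraries against 0.375 and 0.741 CPM, so both labelled knockout libraries lay below both controls. The groups overlapped for Upk3b (0.910 and 0.608 CPM against 0.803 and 1.87 CPM) and Lrrn4 (0.364 and 0.243 CPM against 0.241 and 0.3545 CPM). The part of these markers in the Cd200 values was not tested. In bulk RNA, a changed number of cells of a type and a changed amount of RNA per cell cannot be told apart.

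The B7 family genes of the set lay between 0.294 CPM and 34.4 CPM. Vtcn1 had 945 and 776 counts in the controls and 472 and 787 counts in the labelled knockout libraries, or 34.4 and 31.4 CPM against 12.6 and 25.4 CPM. Both labelled knockout libraries lay below both controls, but they differed from each other by 2.01-fold, against 1.09-fold between the controls. The Vtcn1 log2 fold change was -0.80 ± 0.30 (SE), with a 95% interval of -1.5 to -0.10 and an edgeR adjusted p of 0.561. It was -1.40 without labelled knockout replicate 2 and -0.40 without labelled knockout replicate 1, each with 1 library standing for the group. The size of the Vtcn1 difference thus varied with the library kept.

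Cd276 was steadier. It stood at 13.5 and 15.1 CPM in the control libraries against 11.2 and 12.9 CPM in the labelled knockout libraries, so the groups did not overlap but lay only 1.05-fold apart at their nearest. The log2 fold change was -0.25 ± 0.18 (SE), with a 95% interval of -0.68 to 0.18 and an edgeR adjusted p of 0.871.

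The PD-1 ligand genes had few counts. Cd274 had 52 and 59 counts in the controls and 99 and 65 counts in the deeper labelled knockout libraries. This came to 1.89 and 2.39 CPM against 2.65 and 2.10 CPM, with overlapping groups. Its log2 fold change was 0.16 ± 0.35 (SE), and the 95% interval of -0.66 to 0.99 reaches up to a 1.99-fold increase (edgeR adjusted p = 0.954). Pdcd1lg2 had 27, 10, 11 and 25 counts across the same libraries. Control replicate 1 and labelled knockout replicate 2 were high at 0.983 and 0.806 CPM, and the other 2 were low at 0.405 and 0.294 CPM. The log2 fold change of Pdcd1lg2 was -0.42 ± 0.76 (SE), 95% interval -2.21 to 1.37 (edgeR adjusted p = 0.944). The controls differed 2.43-fold from each other and the labelled knockout libraries 2.74-fold. With these few counts and this spread no difference between groups was detectable.

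Summed over Cd276 and Vtcn1, the RPKM was 21.5 and 21.6 times that of Cd274 and Pdcd1lg2 together in the controls. In the labelled knockout libraries the ratio was 10.2 and 16.9. The B7-H3 and B7-H4 transcripts therefore outweighed those of the PD-1 ligands in all 4 libraries.

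Leukocyte markers are given beside Pdcd1lg2, which myeloid cells also express. The 14 leukocyte markers summed to 167 and 150 CPM against 128 and 215 CPM, of which Cd14 gave 151 and 134 CPM against 108 and 205 CPM. The macrophage gene Cd68 stood at 7.35 and 10.8 CPM against 16.2 and 3.93 CPM, low in the libraries where Pdcd1lg2 was high. Csf1r, a receptor gene of the same cells, stood at 1.42 and 0.689 CPM against 0.776 and 1.35 CPM, high in those libraries. This split was not particular to leukocyte genes. The endothelial sum was 11.3 and 4.46 CPM against 3.56 and 8.02 CPM, and the acinar sum 3.60 and 1.70 CPM against 1.42 and 2.71 CPM. The endocrine sum split the same way, while the neural and Schwann, fibroblast and stellate, mesothelial and ductal sums did not. None of the 14 leukocyte markers was at 0 in all libraries. The pan-leukocyte gene Ptprc, named after its values were seen, stood between 0.294 and 0.801 CPM. Their part in the Pdcd1lg2 values was not tested.

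**Figure D3:**
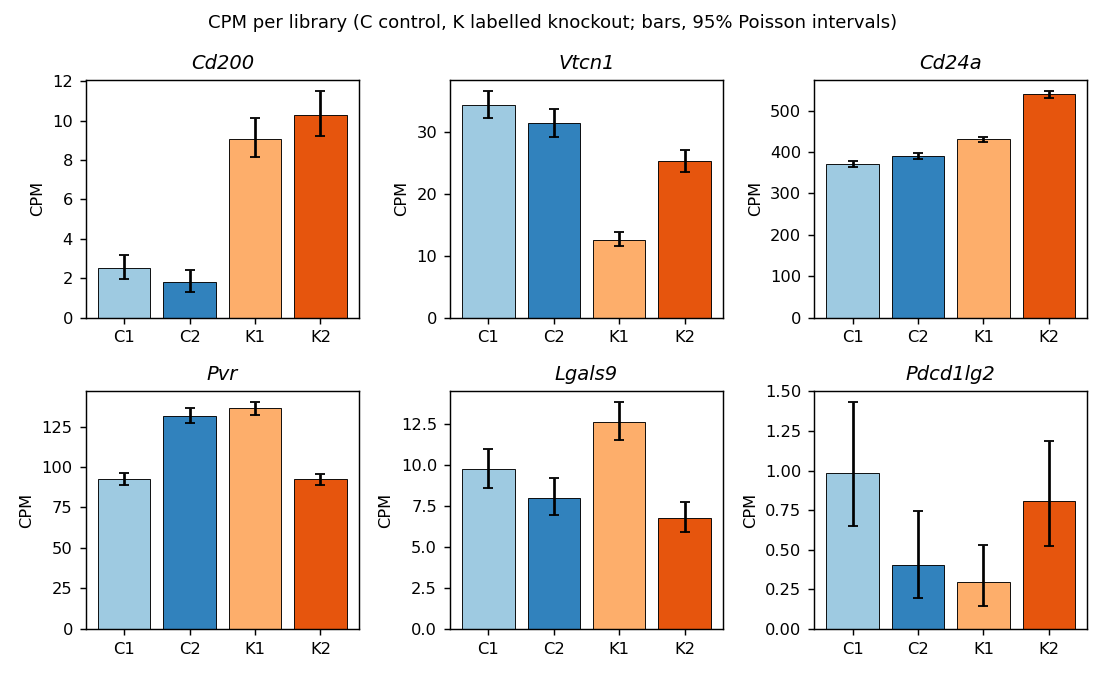
CPM per library for 6 of the ligand genes, with bars starting at 0 and 95% Poisson intervals for counting error. Cd200 separates the groups, Vtcn1 is lowest in labelled knockout replicate 1, and Pvr and Pdcd1lg2 split the libraries across the groups.

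Of the signals to phagocytes, Cd47 had the smallest SE of the set. It stood at 25.8 and 27.8 CPM in the control libraries against 26.5 and 27.8 CPM in the labelled knockout libraries. All 4 libraries lay close together, and the log2 fold change was 0.02 ± 0.15 (SE), 95% interval -0.33 to 0.37 (edgeR adjusted p = 0.988). Changes beyond 1.29-fold upward or 1.26-fold downward thus lay outside the interval. The sign for Cd47 turned negative under 4 other scalings, filters or transcript choices.

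Cd24a stood at 371 and 390 CPM in the control libraries against 430 and 539 CPM in the labelled knockout libraries. The groups did not overlap, yet the lower labelled knockout library was only 1.10-fold above the higher control. The log2 fold change was 0.35 ± 0.19 (SE), 95% interval -0.09 to 0.78 (edgeR adjusted p = 0.759). Between 9625 and 16718 counts per library made counting error small here.

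The remaining ligands, Lgals9 and Pvr, varied within groups. Lgals9 stood at 9.76 and 8.02 CPM in the control libraries against 12.7 and 6.80 CPM in the labelled knockout libraries, which held both its highest and its lowest value. Its log2 fold change was 0.14 ± 0.31 (SE), 95% interval -0.59 to 0.87 (edgeR adjusted p = 0.957). The other Lgals9 transcript, with nearly the same counts, gave 0.12 ± 0.31 (SE). The sign of Lgals9 turned to -0.42 without labelled knockout replicate 1.

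Pvr split the libraries across the groups. It stood at 92.7 CPM in control replicate 1 and 92.4 CPM in labelled knockout replicate 2, and at 131.6 and 136 CPM in control replicate 2 and labelled knockout replicate 1. For Pvr the log2 fold change was 0.03 ± 0.24 (SE), 95% interval -0.53 to 0.59 (edgeR adjusted p = 0.989). The 1.47-fold gap between the labelled knockout libraries and the 1.42-fold gap between controls exceeded the 1.02-fold difference of the group fit.

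Over the whole set, 6 of 9 log2 fold changes were positive and 3 negative, with a median of 0.03 beside -0.01 for all transcripts tested. The groups did not overlap for 4 of the 9 genes, higher for Cd200 and Cd24a and lower for Cd276 and Vtcn1, against 36.1% of all transcripts tested, 19.1% higher and 17% lower. Apart from Cd200, whose interval began at 1.52, all point estimates lay within the 5th to 95th percentile of all transcripts, -0.83 to 0.58. With 2 libraries a group, an exact two-sided permutation test of a single gene cannot go below 0.333.

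**Figure D4:**
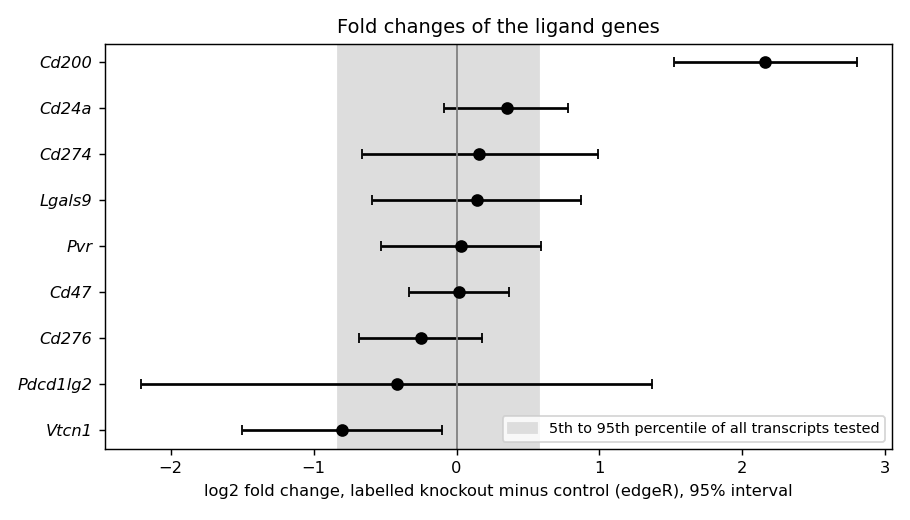
Log2 fold changes (labelled knockout minus control, edgeR) of the 9 ligand genes with 95% intervals, over a grey band that spans the 5th to 95th percentile of all transcripts tested. Cd200 at 2.16 lies outside the band, and the other 8 points lie inside it.

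Receptors for these ligands were mostly near the floor. Of 12 listed receptor genes 5 could be tested and edgeR called 0, with 0 at an unadjusted p under 0.05, against 7.51% of all transcripts, and 0 by DESeq2, against 2.17% of all. The CD200 receptor gene Cd200r1 stood at 0.400 and 0.0810 CPM in the control libraries against 0.134 and 0.129 CPM in the labelled knockout libraries, and the PD-1 gene Pdcd1 at 0.582 and 0.122 CPM against 0.0803 and 0.290 CPM. These 2 genes were named after their values were seen. Sirpa, the receptor for CD47, was the most abundant at 16.1 and 8.26 CPM against 8.72 and 9.67 CPM. Rgmb, a co-receptor of bone morphogenetic proteins that also binds PD-L2, stood at 9.46 to 9.70 CPM in all 4 libraries. Siglecg, the CD24 receptor, ranged from 2.19 to 10.1 CPM, with both extremes in the labelled knockout libraries.

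Other B7, butyrophilin and nectin genes were also without a call. Of 13 listed, 10 could be tested, 8 of them with negative log2 fold changes and a median of -0.24. In edgeR 0 were called and 1 had an unadjusted p under 0.05, against 7.51% of all transcripts. DESeq2 called 0, against 2.17% of all. The nectins, adhesion proteins related to CD155, were the most abundant. Pvrl2, a nectin that also binds TIGIT, stood at 65.3 and 69.7 CPM against 54.6 and 80.6 CPM. Pvrl3 stood at 65.1 and 65.1 CPM against 44.3 and 53.0 CPM, with a log2 fold change of -0.42 ± 0.15 (SE) and an edgeR adjusted p of 0.531. Pvrl4 stood at 44.9 and 54.96 CPM against 35.99 and 50.1 CPM. The costimulatory genes Cd80 and Cd86, named after their values were seen, stayed at or below 0.400 CPM and could not be tested.

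Of 16 other restraining factors 12 could be tested. In edgeR 0 were called and 4 had an unadjusted p under 0.05, against 7.51% of all transcripts, and DESeq2 called 1, against 2.17% of all. The groups did not overlap for 3 genes that were higher and 4 that were lower, against 19.1% and 17% of all transcripts. Cd55, which speeds the decay of complement convertases, stood at 82.6 and 99.2 CPM in the control libraries against 162 and 200.3 CPM in the labelled knockout libraries. The log2 fold change was 1.00 ± 0.18 (SE; edgeR adjusted p = 0.125). The galectin gene Lgals3 stood at 194 and 208 CPM against 264 and 247 CPM (edgeR adjusted p = 0.677). Lgals1, a galectin that restrains T cells, stood at 159 and 139 CPM against 91.3 and 30.4 CPM (log2 fold change -1.29 ± 0.43, SE; edgeR adjusted p = 0.485). The 3 other genes whose labelled knockout libraries both lay below the controls, named after their values were seen, were Nt5e, which encodes the adenosine-forming enzyme CD73, the complement regulator Cd59a and the death ligand Tnfsf10. Their log2 fold changes were -0.81 ± 0.21, -0.91 ± 0.37 and -1.41 ± 0.68 (SE), with edgeR adjusted p of 0.322, 0.622 and 0.725. Tnfsf10 had only 27 and 18 counts in the controls against 9 and 13. The remaining gene that was higher, Tgfb1, also named after its values were seen, stood at 0.473 and 0.486 CPM against 0.7225 and 0.999 CPM. Its edgeR adjusted p was 0.874.

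The interferon gamma axis, which is known to induce Cd274, and the genes that stabilise PD-L1 ranged widely in level. Of 13 listed, 12 could be tested and edgeR called 0, with 2 at an unadjusted p under 0.05, against 7.51% of all transcripts. DESeq2 called 1, against 2.17% of all. The receptor gene Ifngr1 stood at 111 and 120 CPM in the control libraries against 212 and 147 CPM in the labelled knockout libraries (edgeR adjusted p = 0.442). Irf1, the transcription factor through which interferon gamma acts on Cd274, was named after its values were seen. It stood at 41.4 and 60.6 CPM against 31.5 and 26.4 CPM (log2 fold change -0.81 ± 0.21, SE; edgeR adjusted p = 0.314). Jak1 stood at 119 and 143 CPM against 155 and 154 CPM, and Cmtm4, a partner that shields PD-L1 from degradation, at 185 and 203 CPM against 235 and 239 CPM. Cd274 itself stood between 1.89 and 2.65 CPM in the same libraries.

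Among 7 counterparts of CD47 signalling, all tested, edgeR called 0, with 0 at an unadjusted p under 0.05, against 7.51% of all transcripts. DESeq2 called 0, against 2.17% of all. The list had a median log2 fold change of 0.10. Calr, whose product calreticulin prompts engulfment when it reaches the surface, stood at 344 and 321.5 CPM against 357 and 514 CPM. The receptor kinase gene Axl stood at 201 and 182 CPM against 254 and 195 CPM, and Mfge8, which bridges dying cells to phagocytes, at 157 and 180 CPM against 222 and 173 CPM.

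**Figure D5:**
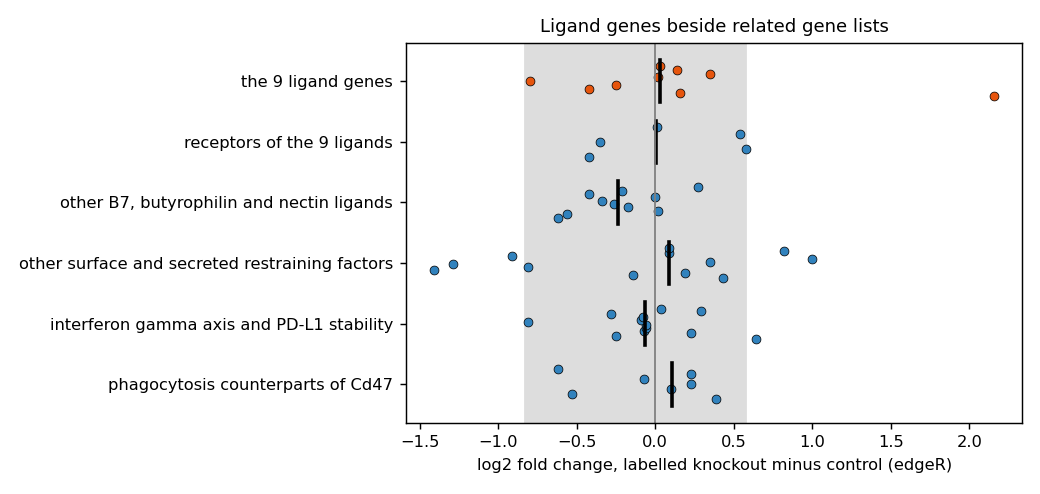
Log2 fold changes (labelled knockout minus control, edgeR) of the 9 ligand genes and of 5 related gene lists, with 1 point per tested gene, black bars at the medians and a grey band for the 5th to 95th percentile of all transcripts tested. The list medians lie between -0.24 and 0.10, and Cd200 is the point farthest from 0.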

How the data were processed

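RNA of 4 primary duct cell cultures was sequenced, 2 per group. The authors deposited raw counts and RPKM with 1 line for each of 28644 RefSeq transcripts. The submitters' processing notes name build mm9 and edgeR without a version. How reads were aligned and counted, and the use of strand, is not given in the sources used here, nor is the RPKM method. The total behind the deposited RPKM, inferred from counts over RPKM, was 1.20-fold higher in control replicate 1 than in control replicate 2, although their deposited count totals differed 1.01-fold. RPKM is therefore used mainly to order genes, and outside the limma alternatives the fold changes rest on counts. Where RPKM values of a gene are set side by side between libraries, they carry this difference in totals.

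Counts were fitted in R 4.3.3 with edgeR 4.0.16: filterByExpr (minimum count 10, minimum total 15), TMM scaling, quasi-likelihood F test with dispersions estimated within that fit, Benjamini-Hochberg adjustment over 20949 transcripts and a threshold of 0.05. SE is the log2 fold change over the root of F, and intervals use the same SE. A separate estimate of the coefficient of variation common to all transcripts, not used in the reported fit, was 0.2339. In the reported fit each transcript's variance had 2 residual degrees of freedom. The script was tested on simulated data. Alternatives used DESeq2 1.42.0, limma 3.58.1 on log2(RPKM + 1) or log2(RPKM + 0.1), other scalings, filters and transcript choices, and each library left out. The members and lists were chosen with earlier results of these data known. Lists were described by counts and medians. Named were all 9 members, called genes and the 3 most abundant genes of each related list, up to 3 of the most abundant and those at 0 of each marker list, neighbours of each member, and the 3 genes closest to Cd200 in pattern. Hhex was named as the targeted gene, and Xist and Ddx3y as a check of the libraries. Others are marked as named after their values were seen. Older symbols such as Pvrl2 are as deposited. Libraries of 1 group come from separate mice, per the series' design text.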

Additional observations from a re-analysis of the deposited data

How the results depend on the processing

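The log2 fold change of Cd200 was positive under every alternative, but its call was lost in 8 of the 15 that kept all libraries. It was then 2.08 with library totals, 2.11 with upper-quartile factors, 2.15 with RLE factors and with no filter on low counts, 2.14 with a minimum of 1 CPM and with 1 transcript per gene, 2.17 with counts summed per symbol and 1.33 in limma-trend on RPKM + 1 with no filter. With 1 library left out it lay between 1.98 and 2.44, and edgeR called it in 2 of these 4 fits, where the lone library of a group is assumed to vary like the others.

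The number of transcripts called, 22 higher and 10 lower, moved to 0 and 5 with library totals and with upper-quartile factors, 0 and 4 with a minimum of 1 CPM, 0 and 2 with 1 transcript per gene, 11 and 3 with counts summed per symbol, 45 and 19 with the robust fit, 174 and 96 with the exact test, 234 and 132 with DESeq2, 125 and 65 with limma-trend on RPKM + 1, and 149 and 72 on RPKM + 0.1. In limma-trend on RPKM + 1 with no filter it was 0 and 0 (1411 at an unadjusted p under 0.05). Without a filter on low counts 6 were lower. With 1 library left out, 0 to 1180 were higher and 0 to 860 lower.

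Signs turned for Cd47, Pvr, Cd274, Pdcd1lg2 and Lgals9. Cd47 went to -0.05 with library totals, -0.03 with upper-quartile factors, -0.0033 with a minimum of 1 CPM, -0.0038 with 1 transcript per gene and -0.03 without control replicate 1 and without labelled knockout replicate 2. Pvr went to -0.04 and -0.02 with those scalings, -0.20 without control replicate 1 and -0.30 without labelled knockout replicate 1. Cd274 went to -0.01 and -0.05, and Pdcd1lg2 to 0.39 and 0.16, without those same libraries. Lgals9 went to -0.42 without labelled knockout replicate 1. With 1 library left out, the highest values were 0.11 for Cd47, 0.34 for Pvr, 0.37 for Cd274 and 0.49 for Lgals9, and the lowest for Pdcd1lg2 was -1.27. No cause was tested. Single-library ranks by RPKM differed from the order of the means in 7 of 36 cases, all in labelled knockout libraries. edgeR with trended dispersions estimated first was chosen after seeing the data and kept the Cd200 call. No paired analysis was possible because the labels number the samples in one series and give no pairs.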

Other observations

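The genes whose pattern over the 4 libraries was closest to that of Cd200 were Dclk1, a kinase gene of tuft cells, and the Ly49 family loci Klra13-ps and Klra23. Closeness is the root mean square distance of centred log2 CPM, taken over 10192 other genes with a mean of at least 5 CPM. It was 0.200 for Dclk1 and 0.262 for both Klra loci, whose counts were identical in all 4 libraries. Dclk1 stood at 6.48 and 4.78 CPM in the control libraries against 17.4 and 27.8 CPM in the labelled knockout libraries. With 4 libraries this is a description.

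Of the 16 tested genes next to the 9 ligand genes in RefSeq's gene order that are not ligand genes themselves, edgeR called 0. An unadjusted p under 0.05 was seen for 2, against 7.51% of all transcripts, and DESeq2 called 0, against 2.17% of all. The genes on either side of Cd200 on chromosome 16 were without a call. The autophagy gene Atg3 stood at 13.9 and 15.9 CPM in the control libraries against 18.6 and 18.1 CPM in the labelled knockout libraries (edgeR adjusted p = 0.777), and Slc9a10 at 0.764 and 0.324 CPM against 0.268 and 0.580 CPM (edgeR adjusted p = 0.944). Cd274 and Pdcd1lg2 are themselves neighbours on chromosome 19. On the other side of Cd274, 5033414D02Rik stood at 18.2 and 18.0 CPM against 23.3 and 22.4 CPM (edgeR adjusted p = 0.696). Next to Pvr on chromosome 7, 2210010C17Rik stood at 0.728, 0.405 and 0.749 CPM in 3 libraries and at 31.8 CPM in labelled knockout replicate 2 (edgeR adjusted p = 0.51). Bbx, next to Cd47 on chromosome 16, had the lowest adjusted p of these neighbours, at 68.8 and 76.1 CPM against 99.9 and 93.4 CPM (log2 fold change 0.42, edgeR adjusted p = 0.504). The log2 fold changes of the others, C030046E11Rik, 6030419C18Rik, Nptn, Man1a2, Trim45, Ift57, 1700021F05Rik, Qrsl1, Nos2, Ksr1 and Ceacam19, lay between -0.71 and 0.37.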
